A study of Mus musculus with 13 samples.

Results

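Neurotrophins are secreted growth factors that act on neurons through Trk receptor tyrosine kinases and through p75NTR. Described here are the genes of both neurotrophins and of 3 receptors with a known part in cerebellar development, chosen by name: Bdnf, Ntf3, Ntrk2, Ntrk3 and Ngfr. They are 5 of 22667 genes in the expression table and hold 52 of 283765 entries in the splicing table. The tables cover 13 RNA sequencing libraries of whole mouse cerebellum, all on the C57BL/6 background. The groups were cerebella lacking Sam68 (Sam68 ko) at postnatal day 1 (libraries 13, 14 and 15), wild type at P1 (8 and 9), Sam68 ko at P10 (10, 11 and 12), wild type at P10 (5 and 6) and wild type at P30 (1, 2 and 3). Sam68, encoded by Khdrbs1, is an RNA-binding protein that takes part in alternative splicing. Nothing in the labels ties each library to an animal of its own, so p-values speak only to the spread between these libraries, which may be technical.

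BDNF, made from Bdnf, binds the receptor TrkB, made from Ntrk2. Neurotrophin-3, made from Ntf3, binds chiefly TrkC, made from Ntrk3, and p75NTR, made from Ngfr, binds every neurotrophin and their uncleaved precursors. TrkB and TrkC are each made in a full-length form with a tyrosine kinase and in truncated forms that bind the ligand but lack the kinase. Truncated TrkB is the main form in astrocytes. In the cerebellum, BDNF and neurotrophin-3 act on granule cells and Purkinje cells, and p75NTR is known from dividing granule cell precursors and young Purkinje cells.

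The coding ends that tell these isoforms apart are shown because the splicing results below turn on them. They were read from the transcripts of GENCODE M21 on build GRCm38, and exons were matched to the deposited tables by length and order, since the tables use build mm9. After a 100-nt exon at chr13:58979524-58979623 (mm9, plus strand), the Ntrk2 forms compared here continue to the kinase exons or to a long last exon at chr13:59033384-59038392. Reads of the truncated form were counted from the 100-nt exon into this last exon. Reads of the kinase form were counted further on, between kinase exons, first from the 189-nt to the 131-nt exon. Ntrk2-205, Ntrk2-208 and Ntrk2-209 also lack the kinase exons but have other last exons, and reads into those were not counted. In Ntrk2-202 the long last exon adds 35 coding bases and a stop codon, shown in capitals, which gives a reading frame of 1428 nt in place of 2463 nt in Ntrk2-207. The stretch of the same length that opens the 189-nt exon of the kinase form is set under it.
Ntrk2 truncated end (GRCm38 chr13:58932023-58932060, plus strand): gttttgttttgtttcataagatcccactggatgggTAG
Ntrk2 kinase form (GRCm38 chr13:58985802-58985839, plus strand): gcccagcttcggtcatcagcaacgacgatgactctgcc

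In Ntrk3 the choice falls after the 189-nt exon. The kinase form goes on to a 131-nt exon, and Ntrk3-202 takes a 135-nt exon (mm9 chr7:85449178-85449312, minus strand) followed by its own last exon of 2058 nt. That last exon holds 116 coding bases before its stop codon, so the reading frame is 1836 nt in place of 2475 nt in Ntrk3-201. Capitals mark TTAAA in the 135-nt exon, where the motifs TTAA and TAAA overlap, and the stop codon in the last exon. Sam68 is known to bind short A and U rich motifs of this kind in RNA. Of 1601 exons of 135 nt in protein-coding transcripts, 34.6% hold TAAA or TTAA on the transcript strand, so the match is a description only. TTAA reads the same on the opposite strand, and TAAA was absent there.
Ntrk3 135-nt exon (GRCm38 chr7:78304292-78304426, minus strand): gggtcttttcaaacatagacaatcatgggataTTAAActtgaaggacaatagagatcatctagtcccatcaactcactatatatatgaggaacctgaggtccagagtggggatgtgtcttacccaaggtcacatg
Ntrk3 truncated end (GRCm38 chr7:78302629-78302747, minus strand): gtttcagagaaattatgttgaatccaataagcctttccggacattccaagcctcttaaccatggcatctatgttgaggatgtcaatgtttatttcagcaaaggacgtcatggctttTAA
Ntrk3 kinase form (GRCm38 chr7:78260284-78260414, minus strand): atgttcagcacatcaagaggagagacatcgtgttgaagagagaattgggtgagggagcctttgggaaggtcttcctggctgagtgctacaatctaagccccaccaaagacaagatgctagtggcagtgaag

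Ntf3 has a 111-nt exon (mm9 chr6:126114748-126114858, minus strand) that carries a start codon and 18 coding bases in all. Ntf3-202 holds this exon and has a reading frame of 813 nt. Ntf3-201 skips it and starts at a later ATG, after 21 bases of the last exon, with 774 nt. In Ntf3-203 a 231-nt first exon ends at the same base as the 111-nt exon. Both start codons are in capitals.
Ntf3 111-nt exon, coding end (GRCm38 chr6:126164730-126164747, minus strand): ATGgttacttctgccacg
Ntf3 last exon, first bases (GRCm38 chr6:126102500-126102523, minus strand): atcttacaggtgaacaaggtgATG

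Expression was deposited as cRPKM, a read density corrected for mappable length and library size, and was tested as log2(cRPKM + 1), which understates the change of low genes. Khdrbs1 had 6.05 ± 2.21 cRPKM in P1 knockouts against 65.4 ± 12.7 in wild type, and 2.31 ± 1.18 in P10 knockouts against 58.7 ± 3.54 (SD). The log2 fold changes were -3.27 (SE 0.31, limma adjusted p = 0.00112) and -4.23 (SE 0.31, adjusted p = 0.000192). The cRPKM values rest on few reads: from their steps, about 0.093 M (library 15) to 3.88 M (library 2) reads stand behind each library. The splicing table is deeper, with 17.59 to 29.72 M exon-exon reads over its introns, so those reads, summed per gene and scaled to the total of such reads as RPM, a per-million scale, were used as another measure of expression. Of the 7 Purkinje cell markers 6 were in the table and all 6 were above 0 in every library. In whole tissue, fewer cells of a type and less RNA per cell cannot be told apart. Scaling by the median of ratios moved the median gene by 0.185 (P30 against P10) and 0.161 (P30 against P1) on the log2 scale and by less than 0.04 elsewhere.

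**Figure D1:**
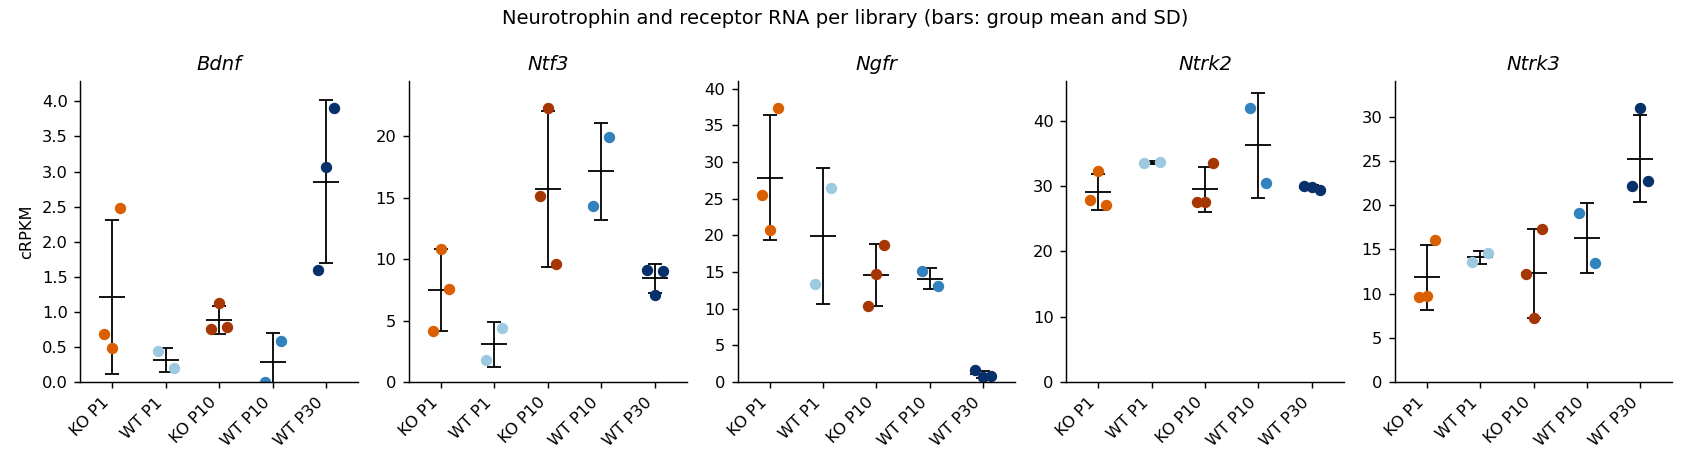
cRPKM of each gene (vertical axis, from 0) in each library (points) of the 5 groups, knockout (KO) left of wild type (WT) at P1 and P10, with the group mean and SD as bars. Ngfr lies between 0.73 and 1.61 cRPKM in the P30 libraries and at 10.36 or above in every other library, while Ntrk2 lies between 27.06 and 41.88 cRPKM throughout.

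Without Sam68, no difference in the expression of the 5 genes passed the test. At P1 0 of 5 genes passed (limma adjusted p under 0.05), where 0.0356% of all 14063 genes tested did. At P10 0 of 5 passed, where 0.00711% of all genes did. By exon-exon reads 0 of the 4 genes with enough reads passed at either age, where 0.00772% (P1) and 0.0154% (P10) of all genes did. The difference between the knockout effects at P10 and P1 was also tested, and 0 of 5 genes passed by cRPKM, where 0.0142% of all genes did. P1 and P10 wild type hold 2 libraries each. At P1 the 8 markers of midbrain and caudal hindbrain, tissue next to the cerebellum, summed to 14 to 22.5 cRPKM in knockouts (1 of 8 above 0 in every library, Tph2 at 0) against 29.0 to 44.2 in wild type (5 of 8), and the 7 oligodendrocyte and myelin markers to 22.4 to 43.3 (2 of 7) against 54.8 to 77.2 (6 of 7), with Opalin at 0 in both. The 5 markers of oligodendrocyte precursors summed to 83.5 to 95.7 in P1 knockouts against 123 to 125 in wild type (5 of 5 each). At P10 the 5 choroid plexus markers summed to 281 to 661 cRPKM in knockouts against 2.27 to 280 in wild type (4 of 5 above 0 in every library of each). The part of these lists in the knockout values was not tested.

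Of the ligands, Bdnf was near the floor of the measurement before P30. It had 0.68, 0.48 and 2.48 cRPKM in P1 knockouts, against 0.44 and 0.20 in P1 wild type. At P10 it had 0.75, 1.12 and 0.79 cRPKM in knockouts, against 0.00 and 0.58 in wild type. Knockout libraries lay above wild type at both ages, but the values stand for about 1 to 5 reads each in knockouts and 0 to 6 in wild type, and the 2.48 of library 15 is about 1 read. The log2 fold changes were 0.64 (SE 0.45, adjusted p = 0.754) at P1 and 0.58 (SE 0.45, adjusted p = 0.908) at P10. Reads from a Bdnf first exon to the coding exon, described with the P30 results, were not higher in the P1 knockouts.

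Ntf3 had 4.15, 10.80 and 7.58 cRPKM in P1 knockouts, against 1.80 and 4.38 in wild type, and the groups overlapped. About 2, 23 and 1 reads stand behind these knockout values and 4 and 7 behind wild type. At P10 it had 15.15, 22.25 and 9.61 cRPKM in knockouts, against 14.34 and 19.92 in wild type, from about 35, 14 and 4 reads and from 7 and 70. The log2 fold changes were 1.05 (SE 0.42, unadjusted p = 0.029, limma adjusted p = 0.715) at P1 and -0.18 (SE 0.42, adjusted p = 0.986) at P10. By exon-exon reads the Ntf3 difference was 0.47 (SE 0.29, adjusted p = 0.608) at P1 and 0.22 (SE 0.29, adjusted p = 0.755) at P10, the last with the opposite sign to cRPKM. The knockout effects at P10 and P1 differed by -1.23 in cRPKM (SE 0.60, adjusted p = 0.854) and by -0.25 in exon-exon reads (SE 0.41, adjusted p = 0.872).

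Of the receptors, Ntrk2 had 27.92, 32.27 and 27.06 cRPKM in P1 knockouts, all a little below the 33.45 and 33.74 of wild type. At P10 it had 27.50, 27.50 and 33.52 cRPKM in knockouts, against 41.88 and 30.54 in wild type, and the groups overlapped. The log2 fold changes of -0.21 (SE 0.17, adjusted p = 0.786) at P1 and -0.28 (SE 0.17, adjusted p = 0.903) at P10 did not pass. Ntrk3 had 9.66, 9.78 and 16.07 cRPKM in P1 knockouts against 13.58 and 14.60 in wild type. It had 12.26, 7.25 and 17.31 in P10 knockouts against 19.10 and 13.49 in wild type. Its groups overlapped at both ages, with log2 fold changes of -0.27 (SE 0.34, adjusted p = 0.854) and -0.44 (SE 0.34, adjusted p = 0.908). Ngfr had 25.52, 20.76 and 37.33 cRPKM in P1 knockouts against 13.33 and 26.47 in wild type, and 10.36, 14.75 and 18.73 in P10 knockouts against 15.13 and 13.06 in wild type. Its groups overlapped at both ages as well, with log2 fold changes of 0.50 (SE 0.36, adjusted p = 0.756) and 0.02 (SE 0.36, adjusted p = 1).

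With age the picture was different. In wild type, the neurotrophin genes rose at different times, and the p75NTR gene fell. Ntf3 was the only one of the 5 genes that passed in cRPKM between P10 and P1, where 4.05% of all genes did. Bdnf and Ngfr passed between P30 and P10 (2 of 5 genes, against 14.7% of all genes). Bdnf, Ntf3 and Ngfr passed between P30 and P1 (3 of 5 genes, against 25.4% of all genes). In the knockout, 0 of 5 genes passed between P10 and P1 in cRPKM, where 10.2% of all genes did. The P30 comparisons and the P10 against P1 comparison in wild type share libraries.

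Ntf3 peaked at P10. In wild type it had 3.09 ± 1.82 cRPKM at P1, 17.1 ± 3.95 at P10 and 8.44 ± 1.16 at P30 (SD, n = 2, 2 and 3), and the 3 ages did not overlap. The rise at P10 against P1 was 2.21 on the log2 scale (SE 0.46, limma adjusted p = 0.0195), but it lost the call without library 8 (1.74, adjusted p = 0.209), 5 (2.43, adjusted p = 0.0869) or 6 (1.98, adjusted p = 0.111). Exon-exon reads, which for Ntf3 join the 111-nt exon to the last exon, gave 6.09, 5.21 and 7.05 RPM in P1 knockouts and 2.44 and 6.55 in P1 wild type. They gave 13.61, 19.39 and 16.16 in P10 knockouts and 11.23 and 16.89 in P10 wild type, above all P1 libraries, and 5.21, 5.96 and 7.58 at P30, below all P10 libraries and overlapping those of P1. By this measure the rise at P10 passed in wild type (1.54, SE 0.31, adjusted p = 0.00195; 27.4% of all genes passed) and in the knockout (1.28, SE 0.26, adjusted p = 0.00122; 36.8% of all genes passed). The fall between P30 and P10 also passed (-1.04, SE 0.29, adjusted p = 0.00758; 48.3% of all genes passed), while in cRPKM it did not (-0.93, SE 0.42, adjusted p = 0.179). With only the P30 and P10 wild-type libraries in the fit it passed in cRPKM too (-0.93, adjusted p = 0.0176), where 3864 genes passed in all, against 2074 in the fit of 5 groups. The cRPKM difference between P30 and P1 (1.27, SE 0.42, adjusted p = 0.0449) did not pass in exon-exon reads (0.49, SE 0.29, adjusted p = 0.149; 61.1% of all genes passed). In cRPKM it lost the call without library 8 (0.80, adjusted p = 0.346), 1 (1.22, adjusted p = 0.115), 2 (1.38, adjusted p = 0.0711) or 3 (1.22, adjusted p = 0.115). In each run with 1 library left out, calls over all genes fell as well in both of these comparisons with P1. Like Ntf3, the summed level of 6 markers of maturing granule cells was highest at P10. It was 278 to 544 cRPKM at P1, 1030 to 1130 at P10 and 627 to 716 at P30 in wild type. All 6 were above 0 in every P1 and P10 wild-type library and 5 in every P30 library, and none was at 0 in a whole group. The 6 microglia markers summed to 37.2 to 48.4 at P1 (5 of 6 above 0 in every library), 68.2 to 84.3 at P10 and 44 to 52.5 at P30 (6 of 6), and those of endothelial cells and pericytes, given with Ngfr, were highest at P10 too. The part of these lists in the Ntf3 result was not tested.

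Bdnf rose last. In wild type it had 0.44 and 0.20 cRPKM at P1, 0.00 and 0.58 at P10, and 1.60, 3.07 and 3.90 at P30, above both earlier ages. The log2 fold change was 1.57 against P10 (SE 0.45, adjusted p = 0.034) and 1.5 against P1 (SE 0.45, adjusted p = 0.0266). The call against P10 was lost without library 5 (1.24, adjusted p = 0.215), 6 (1.90, adjusted p = 0.0581), 2 (1.51, adjusted p = 0.0983) or 3 (1.37, adjusted p = 0.123). The call against P1 was lost without library 8 (1.64, adjusted p = 0.0777), 9 (1.37, adjusted p = 0.133), 2 (1.44, adjusted p = 0.0778) or 3 (1.31, adjusted p = 0.0983). Calls over all genes fell as well in each of these runs with 1 library left out. About 15, 51 and 49 reads stand behind the P30 values. The 6 markers of mature granule cells summed to 133 to 186 cRPKM at P1 (5 of 6 above 0 in every library), 427 to 488 at P10 and 1470 to 1630 at P30 (6 of 6) in wild type. The 6 measured Purkinje cell markers summed to 520 to 748 at P1, 1490 to 1710 at P10 and 2210 to 2740 at P30, and the 6 of inhibitory interneurons to 112 to 229, 117 to 163 and 312 to 359 in the same order (6 of 6 each). The lists of Bergmann glia and astrocytes and of oligodendrocytes and myelin, given with the Ntrk2 share, were highest at P30 too. The part of these lists in the Bdnf result was not tested.

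The Bdnf gene has 11 protein-coding transcripts in GENCODE M21, which differ in their first exon and share the coding exon. The splicing table follows the first exon at mm9 chr2:109516054-109516552, which ends at one of 3 donor sites and is then 204, 416 or 499 nt long. These lengths match the first exons of Bdnf-208, Bdnf-207 and Bdnf-210. Reads from this exon to the coding exon numbered 10, 4 and 7 in P1 knockouts and 27 and 9 in P1 wild type. They numbered 11, 12 and 8 in P10 knockouts and 10 and 10 in P10 wild type, and 63, 62 and 98 in P30 wild type. Scaled to RPM, these are 0.19 to 1.53 in every library before P30 and 2.25, 2.68 and 3.77 at P30. The P30 libraries thus stood above all others in these reads of the splicing table as well. The longest form held 87.3%, 82.26% and 86.73% of these reads at P30 and 80% and 90% at P10 in wild type (0.4 points, adjusted p = 0.897; 2.98% of all events passed). In P10 knockouts it held 72.73% and 50% in the libraries with at least 10 reads, 23.6 points below wild type (log2 odds ratio -1.57, SE 0.73, unadjusted p = 0.0604, adjusted p = 1), from 10 to 12 reads a library. The third P10 knockout, library 12, had 8 reads and did not enter the test, and the longest form held 100% of them, above both wild-type libraries. The shortest form, an entry of length 0 left out of the test, held 10%, 0% and 14.29% in P1 knockouts. It held 14.81% and 33.33% in P1 wild type and 0% in every P10 and P30 library. The 640-nt first exon of Bdnf-201 gave 3, 3 and 1 reads to the coding exon in P1 knockouts, against 17 and 9 in P1 wild type, and 0 to 3 in every P10 and P30 library. These counts were too low for the test. P1 wild type also had the highest sums of the midbrain and caudal hindbrain markers, whose part was not tested.

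**Figure D2:**
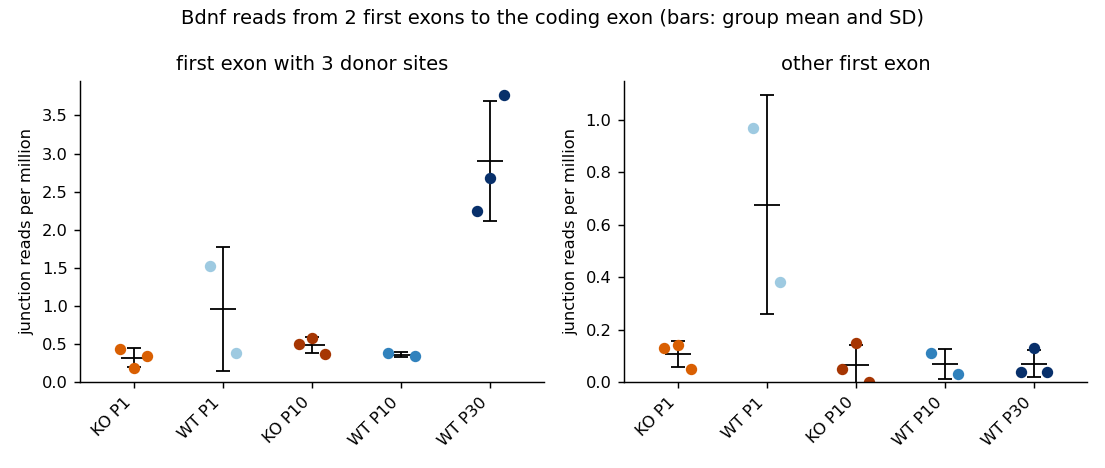
Reads joining 2 Bdnf first exons to the coding exon, in RPM of exon-exon reads (vertical axes, different scales), in each library (points) with the group mean and SD (bars). In the left panel the 3 P30 libraries lie between 2.25 and 3.77 and all others at 1.53 or below. In the right panel, for the 640-nt first exon, P1 wild type (0.97 and 0.38) lies above all other libraries.

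Ngfr fell to near the floor by P30. In wild type it had 13.33 and 26.47 cRPKM at P1, 15.13 and 13.06 at P10, and 1.61, 0.73 and 0.88 at P30, far below both earlier ages. The log2 fold change was -2.88 against P10 (SE 0.36, limma adjusted p = 0.000244) and -3.28 against P1 (SE 0.36, adjusted p = 3.81e-05). Leaving out any single library ended neither call. By exon-exon reads Ngfr had 55.7 ± 14.2 RPM at P1, 33.9 ± 6.28 at P10 and 2.92 ± 1.11 at P30 in wild type (SD). The P30 fall was -3.18 against P10 (SE 0.27, adjusted p = 2.8e-07) and -3.87 against P1 (SE 0.27, adjusted p = 1.24e-08), where 48.3% and 61.1% of all genes passed. Between P10 and P1 the knockout fell by 0.72 on the log2 scale in these reads (SE 0.24, adjusted p = 0.0305), where 36.8% of all genes passed. In cRPKM the knockout difference was -0.88 (SE 0.32, adjusted p = 0.104). In wild type the P10 difference was -0.69 in reads (SE 0.30, adjusted p = 0.103) and -0.40 in cRPKM (SE 0.39, adjusted p = 0.713).

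The 6 granule cell precursor markers summed to 104 to 203 cRPKM at P1, 180 to 215 at P10 and 16.3 to 24.3 at P30 in wild type. At P1 and P10 6 of 6 were above 0 in every library, and at P30 5 of 6 were. The 6 markers of meninges and fibroblasts summed to 105 to 125 cRPKM at P1, 111 to 123 at P10 and 36.1 to 67.8 at P30, with 6 of 6 above 0 in every library. The 5 markers of oligodendrocyte precursors summed to 123 to 125 cRPKM at P1, 107 to 137 at P10 and 61.5 to 72 at P30 (5 of 5), and the 6 of endothelial cells and pericytes to 96.1 to 112, 116 to 134 and 79.2 to 87.8 in the same order (6 of 6). No marker of these 4 lists was at 0 in a whole wild-type group. All 4 lists were lowest at P30, as Ngfr was, and their part in its fall was not tested. Across the 13 libraries the genes most correlated with Ngfr were Sh3bp2 (r = 0.989), an adaptor protein gene, Mab21l1 (0.989) and Nid1 (0.985), which encodes the basement membrane protein nidogen-1. The libraries share their ages and depth, so these values are descriptions. Sh3bp2 had 7.59 cRPKM at P1, 7.28 at P10 and 1.04 at P30 in wild type.

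Ntrk3 was highest at P30. In wild type it had 13.58 and 14.60 cRPKM at P1, 19.10 and 13.49 at P10, and 22.16, 30.92 and 22.67 at P30, above both earlier ages. In cRPKM the difference did not pass against P10 (0.61, SE 0.34, adjusted p = 0.28) or P1 (0.78, SE 0.34, adjusted p = 0.113), but against P1 it passed with median-of-ratios scaling (0.98, adjusted p = 0.0455). It also passed against P1 with only these 2 groups in the fit (0.78, adjusted p = 0.00944), where 6358 genes passed in all, against 3575 in the fit of 5 groups. By exon-exon reads Ntrk3 had 68.5 ± 0.964 RPM at P1, 79.2 ± 9.76 at P10 and 116 ± 16.7 at P30 (SD). Both P30 differences passed by this measure, at 0.54 against P10 (SE 0.17, adjusted p = 0.0143) and 0.74 against P1 (SE 0.17, adjusted p = 0.00122). By the same measure 48.3% and 61.1% of all genes passed in these comparisons. The 3 neuronal marker lists given with Bdnf were highest at P30 as well. So were the lists of Bergmann glia and astrocytes and of oligodendrocytes and myelin, and the part of these lists was not tested. The genes most correlated with Ntrk3 over the 13 libraries were Ece2 (r = 0.913), Abca5 (0.91) and Mbnl1 (0.892), a splicing regulator gene.

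For Ntrk2 as a whole gene no difference with age passed. It had 33.6 ± 0.205 cRPKM at P1, 36.2 ± 8.02 at P10 and 29.7 ± 0.378 at P30 in wild type (SD). Against P10 the P30 difference was -0.26 (SE 0.17, adjusted p = 0.386) and against P1 -0.17 (SE 0.17, adjusted p = 0.539). In exon-exon reads the P30 difference was 0.06 against P10 (SE 0.14, adjusted p = 0.748) and -0.06 against P1 (SE 0.14, adjusted p = 0.706). Per length, Ntrk2 had the highest mean cRPKM of the 5 genes in every group. Ngfr followed in P1 knockouts (20.76 to 37.33, overlapping Ntrk2 at 27.06 to 32.27) and in P1 wild type, then Ntrk3, Ntf3 and Bdnf. At P10 Ntf3, Ngfr and Ntrk3 lay together, with overlapping libraries, between Ntrk2 and Bdnf in both genotypes. At P30 the order was Ntrk2, Ntrk3, Ntf3, Bdnf and Ngfr. There Ntrk3 (22.16 to 30.92) overlapped Ntrk2 (29.33 to 30.07), and the lowest Bdnf library (1.60) lay just under the highest of Ngfr (1.61).

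**Figure D3:**
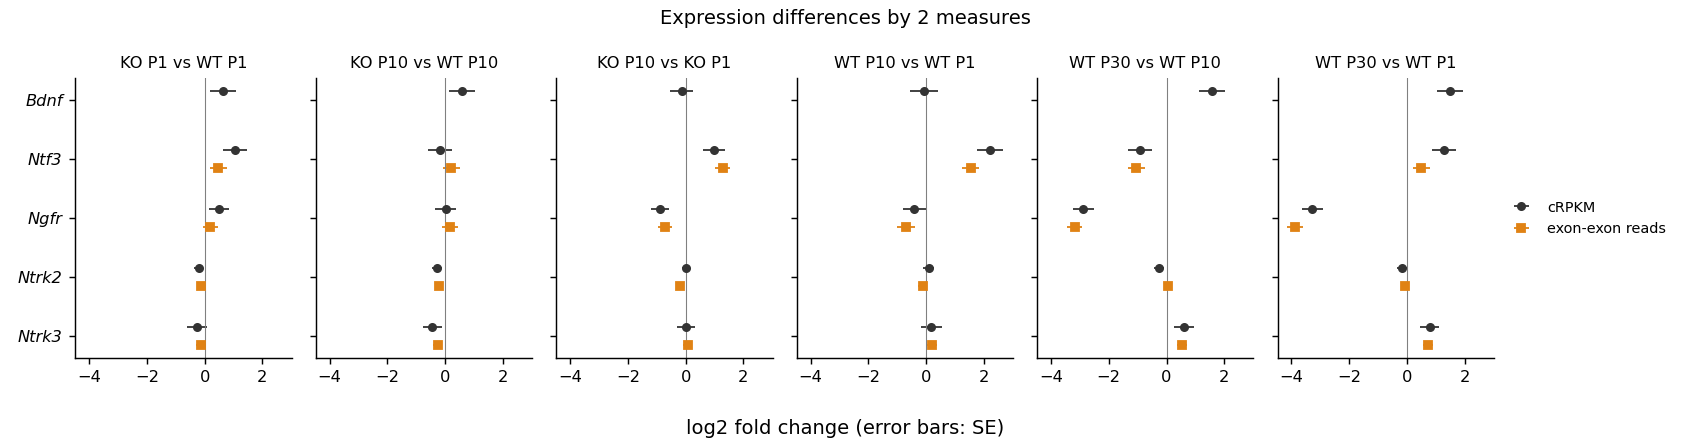
Log2 fold change of each gene (horizontal axes, error bars are SE) in 6 comparisons, from cRPKM (circles) and from exon-exon reads (squares; Bdnf had too few). The Ngfr points lie between -2.88 and -3.87 in the P30 panels, the Ntf3 points are above 1 at P10 against P1 in wild type, and the 2 measures of Ntrk2 lie near 0 in every panel.

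Within Ntrk2, reads at P30 were spread differently over its ends. They were counted at each of 17 Ntrk2 junctions: 1 in the leader, 10 shared by both forms, 1 into the truncated last exon and 5 between kinase exons. Over the 10 shared junctions the mean was 22.4 ± 1.34 RPM at P1, 20.1 ± 1.34 at P10 and 22.3 ± 1.63 at P30 in wild type (SD). At the truncated end it was 9.63 ± 1.22 at P1, 10.3 ± 2.35 at P10 and 15.9 ± 2.31 at P30. Over the 5 kinase junctions it was 9.69 ± 1.57 at P1, 9.84 ± 1.22 at P10 and 6.69 ± 0.827 at P30. The P30 libraries were above all others at the truncated end (13.16 or more, against 11.99 or less). Their kinase values (5.98 to 7.60) lay below P10 and P1 wild type (8.58 or more) but within the range of P10 knockouts (5.78 to 9.70).

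Raw reads at the truncated end were 133, 185 and 145 in P1 knockouts and 185 and 206 in P1 wild type. They were 191, 133 and 160 in P10 knockouts, 316 and 258 in P10 wild type, and 485, 305 and 444 at P30. At the first kinase junction they were 192, 202 and 196 in P1 knockouts and 185 and 197 in P1 wild type, 173, 98 and 239 in P10 knockouts, 331 and 278 in P10 wild type, and 197, 197 and 178 at P30. The share of the truncated end in the reads of these 2 junctions, a measure built after these values were seen, is not a molar share, since junctions differ in how well they are read. This share also leaves out truncated forms with other last exons.

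That share was 50.6% ± 0.8 at P1, 48.5% ± 0.5 at P10 and 67.8% ± 6.1 at P30 in wild type (SD). P30 lay 19.3 points above P10 (log2 odds ratio 1.17, SE 0.34, unadjusted p = 0.00463, limma adjusted p = 0.0884) and 17.2 points above P1 (1.05, SE 0.34, adjusted p = 0.0622). Neither passed. The difference from P1 did pass without library 2, the P30 library with the lowest share (20.7 points, adjusted p = 0.0422). It also passed with the mean of the 5 kinase junctions, another unplanned measure (20.1 points, adjusted p = 0.0244), where 10% of all events passed. Since the share was built after its values were seen, these p-values are descriptions. Against P10 the mean of the 5 junctions gave 19.1 points (adjusted p = 0.0674). Every P30 library (60.8% or more) was above every other library (57.6% or less). The 8 markers of Bergmann glia and astrocytes summed to 540 to 555 cRPKM at P1, 1260 to 1370 at P10 and 1530 to 2060 at P30, with 8 of 8 above 0 in every wild-type library. The 7 markers of oligodendrocytes and myelin summed to 54.8 to 77.2 at P1, where Opalin was at 0, 1680 to 2060 at P10 and 3660 to 4570 at P30. Their part in the P30 share was not tested. The neuronal lists given with Bdnf were highest at P30 as well.

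In the knockout, the truncated share was 40.9%, 47.8% and 42.5% at P1, below the 50.0% and 51.1% of wild type. The difference was -6.8 points (log2 odds ratio -0.39, SE 0.34, adjusted p = 1; 0.0242% of all events passed). At P10 it was 52.5%, 57.6% and 40.1% in knockouts, on both sides of the 48.8% and 48.1% of wild type (1.6 points, SE 0.34 on the log2 odds scale, adjusted p = 1; 0.0309% of all events passed). Library 12 stood apart from the other P10 knockouts, with more kinase reads and a lower share.

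**Figure D4:**
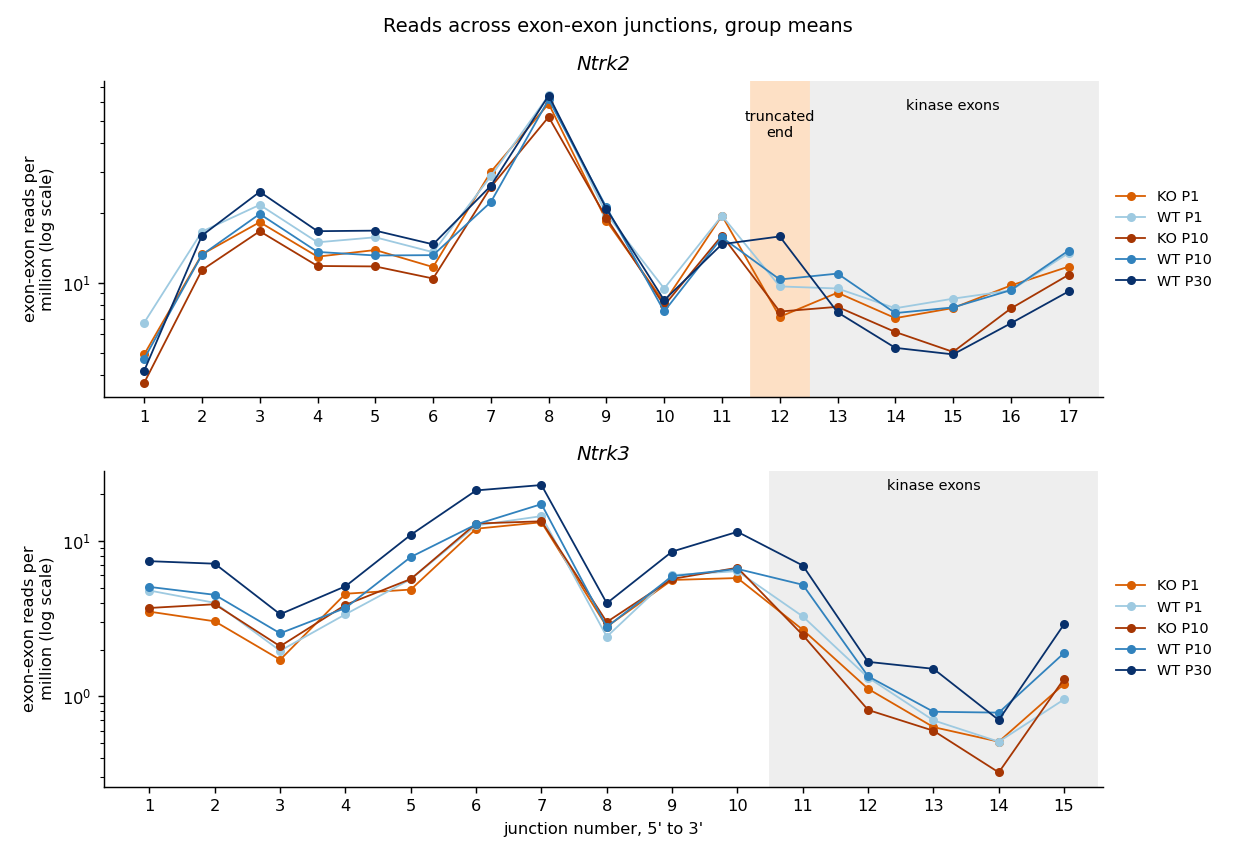
Group means of exon-exon reads in RPM (log scale) at the junctions of Ntrk2 and Ntrk3 in order from 5′ to 3′, with the junction into the truncated end of Ntrk2 and the kinase junctions shaded. At junction 12 of Ntrk2 the P30 line is the highest (15.9), and over the kinase junctions 13 to 17 it is the lowest or close to it (mean 6.69). For Ntrk3 the P30 line is the highest at most junctions.

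At the 5′ end of Ntrk2, the table lists an intron of 1532 nt (mm9 chr13:58908214-58909745) as 31.75% to 50.56% retained. Reads across its 3′ boundary numbered 65 to 218 per library, and those across its 5′ boundary 0 to 2. In GENCODE M21 the first exon of Ntrk2-202 is 660 nt long, ends where the 556-nt exon after this intron ends and starts 104 nt before it. Transcripts with that first exon give reads across the 3′ boundary alone, so the value is not read as retention. It was 45% ± 0.8 at P10 and 34.7% ± 1.5 at P1 in wild type (10.4 points, adjusted p = 0.573; 0.674% of all events passed), and 40.3% ± 4.1 in P10 knockouts and 34.6% ± 3.1 in P1 knockouts.

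The 135-nt exon of Ntrk3 varied more between libraries than any other exon of the 5 genes with 10 reads in most libraries. Its PSI, the percent of junction reads that include it, was 66.45%, 56.91% and 52.11% in P1 knockouts, against 60.13% and 50.04% in wild type. At P10 it was 74.32%, 81.84% and 49.76% in knockouts, against 38.13% and 48.22% in wild type, and at P30 it was 49.03%, 44.79% and 58.28%. All P10 knockout libraries lay above P10 wild type, but library 12 only just. The P10 difference was 25.5 points (log2 odds ratio 1.63, SE 0.54, unadjusted p = 0.0101, limma adjusted p = 1), so it did not pass. It stayed between 18.9 and 34.9 points with any 1 library left out. At P1 the difference was 3.4 points (SE 0.54 on the log2 odds scale, adjusted p = 1), and the effects at the 2 ages differed by 22.1 points (adjusted p = 1). With age, P10 minus P1 was -11.9 points in wild type (adjusted p = 0.712) and 10.1 in the knockout (adjusted p = 0.634), and P30 minus P10 was 7.5 points in wild type (adjusted p = 0.777).

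Reads entering the kinase exons of Ntrk3 can be set beside those from the exon before. Reads from the 189-nt to the 131-nt exon, which also count against the 135-nt exon in PSI, numbered 43, 25 and 93 in P10 knockouts and 173 and 116 in P10 wild type. Those from the 103-nt to the 189-nt exon, shared by both forms, numbered 157, 133 and 143 in knockouts and 213 and 153 in wild type. The ratio was 0.27, 0.19 and 0.65 in P10 knockouts, against 0.81 and 0.76 in wild type. At P1 it was 0.43, 0.45 and 0.51 in knockouts, against 0.45 and 0.58 in wild type, and at P30 it was 0.65, 0.71 and 0.44. The P10 knockouts were thus below P10 wild type, libraries 10 and 11 by far and library 12 by little. Over all 5 kinase junctions the mean was 1.1 ± 0.636 RPM in P10 knockouts, against 2.02 ± 0.417 in wild type (SD), with one overlap: library 12 reached 1.79 and wild type began at 1.72. These values were not tested on their own.

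The 111-nt exon of Ntf3 was included more with age in both genotypes. Its PSI was 89.13%, 84.42% and 80.82% in P1 knockouts, against 83.87% and 85.51% in wild type. At P10 it was 95.56%, 96.65% and 97.18% in knockouts, against 95.05% and 95.06% in wild type, and at P30 it was 100% in all 3 libraries. No 2 ages overlapped. Between P30 and P1 it rose by 15.3 points (log2 odds ratio 6.11, SE 0.36, limma adjusted p = 4.07e-07), and between P10 and P1 it rose by 11.7 points in the knockout (2.25, SE 0.32, adjusted p = 0.00306; 0.875% of all events passed). In wild type P10 exceeded P1 by 10.4 points (1.81, SE 0.40, adjusted p = 0.0577). P30 exceeded P10 by 4.9 points (adjusted p = 3.04e-05), under the 10 points that a call also needs. Between knockout and wild type it differed by 0.1 points at P1 and 1.4 points at P10 (adjusted p = 1 for both).

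Between P10 and P1 the reads counted as including the exon differed more than those counted as skipping it. Inclusion reads numbered 336.37, 453.29 and 407.18 in P10 knockouts, against 155.09, 119.88 and 160.02 in P1 knockouts, and 337.43 and 562.76 in P10 wild type, against 47.81 and 164.18 in P1 wild type. Skipping reads numbered 18.91, 22.12 and 37.98 in P1 knockouts and 9.19 and 27.82 in P1 wild type, after the table's own correction. They numbered 15.63, 15.71 and 11.82 in P10 knockouts and 17.57 and 29.24 in P10 wild type, and 0 at P30, of 177, 156 and 233 reads. A count of 0 allows up to 1.69%, 1.92% and 1.29% skipping there, for counting error only. The reads that include the exon came mostly from its junction to the last exon, which Ntf3-203 also makes, so they do not tell these forms apart. In library 10, for instance, 298 of these junction reads stand beside 336.37 corrected inclusion reads. The table's balance word for this exon was B2 in all 13 libraries and its coverage word N in 8, whereas the Ntrk3 exon was marked OK for balance in 11 libraries and SOK for coverage in 13. The Ntf3 call between P10 and P1 in the knockout was lost without library 15 (9.7 points, adjusted p = 0.0185), with no limit on mean PSI (adjusted p = 0.0522) and when the fit held only the 2 knockout groups (adjusted p = 0.0602).

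**Figure D5:**
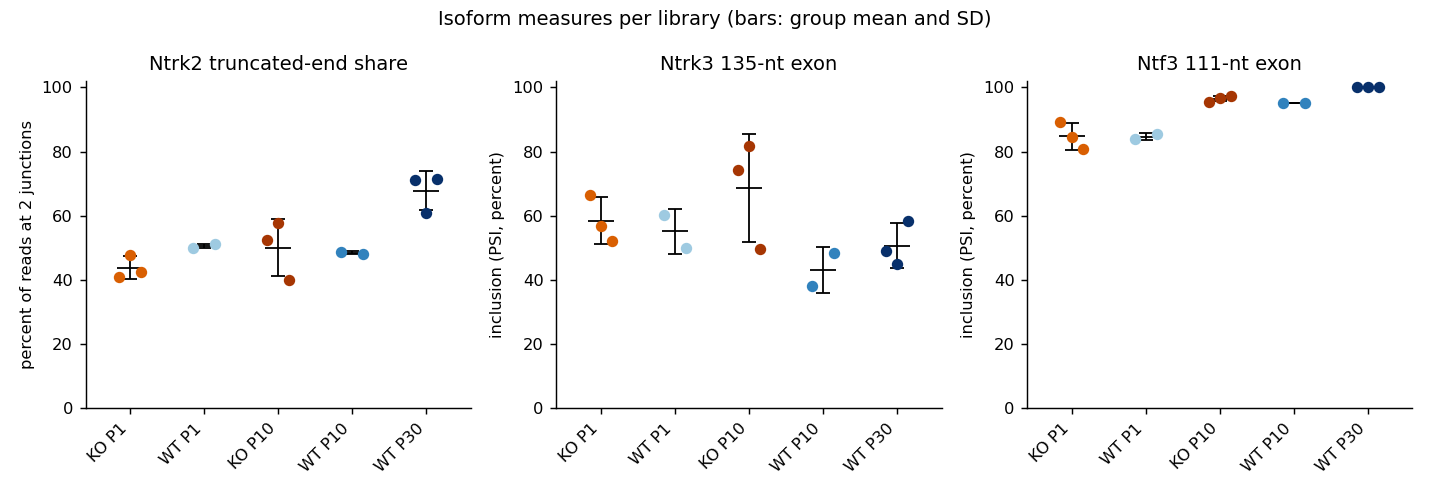
Truncated-end share of Ntrk2 and PSI of the Ntrk3 135-nt and Ntf3 111-nt exons (percent, vertical axes) in each library (points), with the group mean and SD (bars). P30 lies above all other groups for Ntrk2 (60.8% or more), P10 knockouts above P10 wild type for Ntrk3, and both P10 groups above both P1 groups for Ntf3.

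Most other entries of the 5 genes were close to constant. Of the 52 entries (4 of Bdnf, 2 of Ntf3, 17 of Ntrk2, 23 of Ntrk3 and 6 of Ngfr), 5 could be tested in at least 1 comparison, 46 had a mean PSI under 5 or over 95 in the libraries with at least 10 reads, and 1 repeats the other Bdnf donor sites. All 38 introns outside the test had a mean under 5%. Of 10 exons 8 had a mean over 95% (1 of them, a 118-nt exon of Ntrk3, from a single library), among them the 142-nt exon of Ngfr (96.36% to 100%) and the 24-nt microexon of Ntrk3 (94.76% to 100%). A 244-nt exon of Ntrk3 ranged from 87.5% to 100%.

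The rest of the pathway was read through lists of genes, in cRPKM. Between knockout and wild type 0 genes of any list passed at P1 or P10, of 6 other neurotrophin receptors, 14 processing and release genes, 43 Trk adaptor and signalling genes, 15 p75NTR partners and 14 activity and Trk-induced targets tested. Their median log2 fold changes at P1 were -0.20, -0.19, 0.05, -0.09 and -0.21 in that order, and over all genes the median was -0.04. At P10 they were -0.18, 0.18, -0.20, -0.01 and -0.17, against -0.03 over all genes. None of the other neurotrophin genes reached the expression filter.

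With age, genes that process and release neurotrophins moved both ways. Between P30 and P1 3 of 14 rose and 4 fell, where 9.66% of all genes rose and 15.8% fell. Cadps2, which promotes BDNF and neurotrophin-3 release, had 85.5 ± 3.99 cRPKM at P30 against 22.4 ± 13.6 at P1 (2.02 on the log2 scale, SE 0.28, adjusted p = 0.000231). It had already reached 101 ± 13.7 at P10 in wild type and 98.7 ± 12.1 in the knockout. Pcsk6, a proprotein convertase gene, had 32 ± 1.88 at P30 against 6.14 ± 1.29 at P1 (2.22, SE 0.28, adjusted p = 0.000126). Hap1, which takes part in BDNF transport, had 16.4 ± 1.58 at P30 against 125 ± 84.3 at P1 (-2.68, SE 0.37, adjusted p = 0.000199). P1 wild-type libraries varied widely for Hap1, and P1 knockouts had 59.9 ± 10.3. In wild type the 8 midbrain and caudal hindbrain markers summed to 29.0 to 44.2 cRPKM at P1 (5 of 8 above 0 in every library). They summed to 3.79 to 12.9 at P10 (1 of 8) and 6.81 to 11.1 at P30 (3 of 8). Their part in the Hap1 difference was not tested. Of the convertase genes, Pcsk2 had 29.2 ± 4.25 cRPKM at P30 against 8.52 ± 0.764 at P10 (1.66, SE 0.27, adjusted p = 0.00155) and Pcsk1 8.19 ± 2.93 against 0.78 ± 1.1 (2.47, SE 0.62, adjusted p = 0.0195). Pcsk5 had 0.305 ± 0.431 at P10 against 4.34 ± 0.912 at P1 (-2.06, SE 0.45, adjusted p = 0.025).

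Among other receptors, 1 of 6 rose and 3 fell between P30 and P1. Sorl1, a sorting receptor gene, had 6.69 ± 1.06 cRPKM at P1, 25 ± 11.1 at P10 and 76.7 ± 5.61 at P30 (3.34 at P30 against P1, SE 0.27, adjusted p = 3.49e-06). The sortilin-related genes Sorcs1 and Sorcs2 had 4.96 ± 0.843 and 2.95 ± 0.425 at P30, against 20.6 ± 1.24 and 11.2 ± 0.0495 at P1 (-1.87, adjusted p = 0.00302, and -1.63, adjusted p = 0.0106). Of the p75NTR partners 2 of 15 rose and 5 fell. Lingo1, a p75NTR co-receptor gene, had 22.6 ± 1.62 cRPKM at P30 against 82.2 ± 7.22 at P1 (-1.82, SE 0.16, adjusted p = 8.2e-06). Maged1, which encodes the p75NTR interactor NRAGE, had 152 ± 11.5 against 335 ± 9.22 (-1.14, adjusted p = 0.000112), and Ngfrap1, which encodes another p75NTR-binding protein, 215 ± 8.37 against 496 ± 30.1 (-1.21, adjusted p = 0.000114). These 3 genes, named for the smallest p in their list, fell as Ngfr did, while 8 of the 15 partners did not pass. All the marker lists given with the fall of Ngfr were lowest at P30 as well, and their part was not tested.

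Of the Trk adaptor and signalling genes 3 of 43 rose and 11 fell between P30 and P1, with a median of -0.07, against -0.13 over all genes. The ribosomal S6 kinase gene Rps6ka1 had 46.4 ± 3.14 cRPKM at P30 against 7.07 ± 1.69 at P1 (2.57, SE 0.29, adjusted p = 4.22e-05). Kidins220, a Trk scaffold gene, had 68.2 ± 4.26 against 147 ± 3.92 (-1.1, SE 0.19, adjusted p = 0.00104) and Akt1 45.2 ± 3.99 against 87.9 ± 2.22 (-0.95, SE 0.14, adjusted p = 0.000352). Mapk7, which encodes the kinase ERK5, had 11.7 ± 1.96 at P30 against 43.5 ± 9.31 at P10 (-1.80, SE 0.24, adjusted p = 0.000374) and Gab1 13.5 ± 1.71 against 36.9 ± 5.14 (-1.38, SE 0.22, adjusted p = 0.0014). Of the activity and Trk-induced targets 2 of 14 rose and 3 fell between P30 and P1. Arc, an activity-induced gene, had 6.79 ± 1.47 at P30 against 0.99 ± 0.226 at P1 (1.96, SE 0.58, adjusted p = 0.0257). The MAP kinase phosphatase gene Dusp4 had 2.12 ± 0.387 against 22.1 ± 7.35 (-2.86, SE 0.32, adjusted p = 4.19e-05).

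In the knockout between P10 and P1, where 5.58% of all genes rose and 4.59% fell, 0 of 6 other receptors rose and 2 fell, 1 of 14 processing genes rose and 2 fell, and 2 of 43 Trk adaptors rose and 4 fell. Among these, Plcg1, which encodes the phospholipase recruited to activated Trk, had 17.3 ± 1.82 cRPKM at P10 against 37.8 ± 12.7 at P1 (-1.04, SE 0.22, adjusted p = 0.0113). Of the p75NTR partners 0 of 15 passed, and of the targets 0 of 14 rose and 1 fell.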

How the data were processed

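RNA of mouse cerebella was made into 13 libraries with a stranded mRNA kit, changed in places by the submitters, per the labels. Reads were handled with FastQC and Trimmomatic on build mm9, per the submitters' processing notes, and which aligner was used is not given in the sources used here. The authors deposited expression as cRPKM, an RPKM over mappable length, and splicing as percent inclusion (PSI) with a text field of reads for and against. Expression was tested as log2(cRPKM + 1) in 14063 genes with a group mean of at least 1 cRPKM. Splicing was tested as log2 odds after adding 0.5 reads to either side, for events with at least 10 reads per library, a mean PSI of 5 to 95 and 2 libraries per group. Both used limma 3.58.1 in R 4.3.3, with 1 fit of the 5 groups, checked on simulated data. Benjamini-Hochberg adjustment ran over all features in a comparison, and an event call also needed 10 points. Of the splicing entries 30610 alternative splice sites of length 0 were left out.

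The members, lists and comparisons were chosen with earlier results of these data known. The 5 genes, their testable events, up to 3 genes with the smallest p per list and comparison, and the 3 genes most correlated with a member could be named. The sum of exon-exon reads as a measure of expression and the Ntrk2 truncated-end share were added after the data were seen. Reads behind cRPKM were estimated from the lowest step of cRPKM times transcript length in GENCODE M21. Alternatives changed the pseudocount, filters, scaling, prior, groups in the fit, reads added and limits on PSI, or left out each library in turn. Tables were read with Python 3.11.15 and pandas 2.3.3.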

Additional observations from a re-analysis of the deposited data

How the results depend on the processing

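No paired analysis was possible because library numbers are not shared between groups. Counts of calls aside, 404 differences of single genes or events were recomputed under other settings and 376 with 1 library left out. Of these 375 and 316 kept their direction and side of the threshold. Under other settings the count of called genes was 2 to 4 between P30 and P1 (3 as reported), 1 to 3 between P30 and P10 (2 as reported) and 0 to 2 between P10 and P1 in the knockout (0 as reported). Values of Ntrk2 near 0 changed sign: P30 against P1 was 0.03 and the difference of the knockout effects 0.00 with median-of-ratios scaling, and exon-exon reads gave -0.12 (P10 against P1 in wild type), 0.06 (P30 against P10) and -0.19 (P10 against P1 in knockout). Exon-exon reads gave 0.22 for Ntf3 at P10 in knockout against wild type, and a pseudocount of 0.1 gave 0.51 for the difference of the Bdnf knockout effects. The count of called members was 1 between P30 and P10 with a filter of 5 cRPKM. That filter removed Bdnf from the test, since its highest group mean was 2.86 cRPKM. By exon-exon reads the count was 2 of the 4 genes with enough reads between P10 and P1 in the knockout, where 36.8% of all genes passed. With the mean of the 5 kinase junctions the Ntrk2 truncated share was -0.6 points in P10 knockout against wild type, 1.0 between P10 and P1 in wild type and 20.1 (adjusted p = 0.0244) between P30 and P1. The count of called events was 1 between P10 and P1 in wild type with 1 read added to each side, 1 between P30 and P10 by adjusted p alone, and 0 between P10 and P1 in the knockout with no limit on mean PSI or with only the compared groups. Over all events, calls in that knockout comparison fell as well. They numbered 155 with no limit on mean PSI and 121 with only the compared groups, against 337 as reported. Apart from the removal of Bdnf by the filter, the cause of these changes was not tested.

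The Bdnf call between P30 and P1 was lost with a pseudocount of 0.1 (adjusted p = 0.0611), and that of Ntf3 with no expression filter (adjusted p = 0.0582) or a prior without trend (adjusted p = 0.0503). Leaving out 1 library at a time, the counts of called genes ranged from 0 to 1 (P10 against P1, wild type), 1 to 2 (P30 against P10) and 1 to 2 (P30 against P1), and that of events from 0 to 1 (P10 against P1, knockout). Over all genes, calls in these wild-type comparisons also fell in every such run, from 569, 2074 and 3575 in the same order. Whether the lost calls of the 5 genes go beyond this fall was not tested. Changes of sign came with differences near 0. In expression the ranges were -0.36 to 0.25 (Bdnf, P10 against P1, knockout), -0.39 to 0.27 (Bdnf, P10 against P1, wild type), -0.39 to 0.32 (Bdnf, difference of knockout effects), -0.17 to 0.23 (Ngfr, P10 knockout effect), -0.87 to 0.07 (Ngfr, P10 against P1, wild type) and -0.45 to 0.11 (Ntf3, P10 knockout effect). For Ntrk2 they were -0.07 to 0.09 (P10 against P1, knockout), -0.13 to 0.31 (P10 against P1, wild type) and -0.29 to 0.15 (difference of knockout effects), and for Ntrk3 -0.26 to 0.32, -0.06 to 0.41 and -0.44 to 0.14 in the same order. In points of PSI they were -5.4 to 4.6 and -4.6 to 5.4 (Bdnf donor sites, P30 against P10), -2.1 to 2.1 (Ntf3 exon, P1 knockout effect), -0.7 to 3.5 (Ntf3 exon, difference of knockout effects), -1.7 to 1.4 (Ntrk2 leader intron, P1 knockout effect) and -6.9 to 1.3 (Ntrk2 leader intron, P30 against P10). For the Ntrk3 exon they were -1.6 to 8.4 (P1 knockout effect) and -9.4 to 0.7 (P30 against P1), and for the Ntrk2 truncated share -2.2 to 6.5 (P10 knockout effect) and 15.4 to 20.7 (P30 against P1). Depth limits Bdnf most, with 0 to 6 estimated reads per library before P30.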

Other observations

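Genes whose level over the 13 libraries was most like that of the other members are given as descriptions, since libraries share age and depth. For Bdnf they were Spop (r = 0.904), Stap2 (0.89) and Cpm (0.871). Cpm had 0.205 cRPKM at P1, 0.40 at P10 and 4.39 at P30 in wild type. For Ntf3 they were Cyb5r4 (r = 0.921), Tmem161b (0.897) and Ppp6c (0.873), each highest at P10 in wild type among the 3 ages. For Ntrk2 they were Stx11 (r = 0.868), Ankfn1 (0.855) and Trim12a (0.852), none of which averaged above 4.54 cRPKM in a group.

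The choroid plexus markers also varied within groups, with sums of 2.82 to 253 cRPKM in P1 knockouts and 4.77 to 1120 at P30.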
